A study of Homo sapiens with 20 samples.

Results

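The transcription coactivators YAP (gene YAP1) and TAZ (gene WWTR1), their DNA-binding partners TEAD1, TEAD2, TEAD3 and TEAD4, the kinases LATS1 and LATS2 that restrain them, and the target genes AMOTL2 and ANKRD1 were followed across 8 tumor transcriptomes. These 10 genes were taken by symbol from a table of 24196 genes, by a rule that used no measured value though earlier results of these data were known, and all 10 were found and passed the filter on low values. The tumors were labelled as orthotopic growths of OVCAR8, a human high-grade serous ovarian carcinoma cell line, in NSG mice, and the libraries split into 4 of PBS-treated and 4 of sodium gluconate-treated hosts, gluconate being a modulator of the membrane protein TMEM87A. By the study's methods, luciferase-tagged cells carrying the control guide sgNC were implanted in the ovarian fat pad of mice aged 6 weeks, and gluconate was injected intraperitoneally at 1 mg/kg every 1 week in a study of 35 days. NSG mice lack mature T, B and NK cells, so both groups were tumors of 1 human cell line in a host with little immunity. The text of the study also speaks of gluconate-treated OVCAR8 cells for these data, and the labels, which say tumors, were followed. The comparison asks which transcripts of this module differed between gluconate and PBS tumors.

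The Hippo pathway is a kinase cascade that senses cell contact, shape and mechanical load. LATS1 and LATS2 phosphorylate YAP and TAZ, which keeps these coactivators in the cytoplasm or sends them to degradation, and YAP and TAZ that escape enter the nucleus, bind TEAD factors and switch on genes for growth and matrix. Much of this control acts on protein, which RNA-seq does not measure, so the values below are transcript levels and not the activity of YAP or TAZ.

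Expression was given as FPKM, the fragments of a gene scaled by its length and by the depth of its library, so that levels can be set side by side between genes. The FPKM steps gave back whole fragments, which summed to between 39248707 and 46457636 over all genes in 7 libraries and to 3944893 in PBS replicate 4, a depth 9.95 to 11.8 times lower. Intervals on a single library are 95% Poisson intervals on those fragments and cover counting error only. PBS replicate 4 also stood apart in level, with the lowest value of the 8 libraries in 58.0% of the 12486 genes tested, and the fold changes of the 10 genes are therefore given with and without it. Of 10 ovarian carcinoma markers, PAX8 (32.4 to 50.7 FPKM), KRT8, KRT18, KRT7, MSLN and EPCAM were present in every library, WT1 was low and MUC16, KRT19 and CDH6 stayed under 0.1 FPKM throughout. Of 8 endothelial markers, 7 had a mean under 0.5 FPKM, with CDH5 and CLDN5 near 0 and EGFL7 at 6.06 to 8.49 FPKM. Of 6 myeloid markers in the table, 4 had a mean under 0.5 FPKM, with PTPRC near 0 and CD68 at 19.7 to 28.0 FPKM. In bulk RNA, fewer cells of a type and less RNA per cell cannot be told apart.

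Among the 8 of the 10 genes with a promoter entry in RefSeq (GRCh38.p14), the core TEAD motif GGAATG, searched on both strands of the 250 bases before the start listed there, was found in YAP1 and ANKRD1. The starts listed for WWTR1 and LATS1 lie inside the gene intervals given below, so the bases before the outermost start of these 2 genes were not searched. Both stretches are shown because YAP1 is the activator and ANKRD1, among these 10 genes, the one whose level varied most between libraries. They read 5′ to 3′ on the strand of the gene, with GGAATG in capitals, from chr11:102110197-102110446 on the plus strand for YAP1 and chr10:90921088-90921337 on the minus strand for ANKRD1.
YAP1: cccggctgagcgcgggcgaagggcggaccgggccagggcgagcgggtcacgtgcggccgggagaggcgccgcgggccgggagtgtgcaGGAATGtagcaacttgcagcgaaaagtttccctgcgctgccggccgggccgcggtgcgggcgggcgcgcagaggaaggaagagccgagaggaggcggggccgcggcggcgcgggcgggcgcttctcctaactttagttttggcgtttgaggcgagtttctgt
ANKRD1: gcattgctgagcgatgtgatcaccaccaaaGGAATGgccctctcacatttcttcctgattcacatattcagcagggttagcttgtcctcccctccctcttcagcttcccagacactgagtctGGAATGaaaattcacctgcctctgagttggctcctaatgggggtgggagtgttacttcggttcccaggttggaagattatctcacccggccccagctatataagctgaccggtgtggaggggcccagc
YAP1 held 1 match, at bases -162 to -157 from the start. ANKRD1 held 2 matches, at -220 to -215 and -128 to -123, and between them 1 match of the AP-1 motif TGANTCA, at -195 to -189, which overlaps neither. Of all 27305 promoters in the table, 11.9% held GGAATG at least 1 time, 0.963% at least 2 times, and 6.60% held TGANTCA. These are letter matches, not measured binding sites.

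YAP1, the gene of the coactivator YAP, lies at chr11:102110447-102233424 (RefSeq, GRCh38.p14) and was the more abundant of the coactivator pair. It stood at 62.9, 70.2, 51.5 and 49.2 FPKM in PBS replicates 1 to 4 and at 61.5, 66.9, 67.9 and 59.8 FPKM in gluconate replicates 1 to 4. PBS replicates 3 and 4 were the lowest libraries and PBS replicate 2 the highest, so the PBS tumors spanned the whole gluconate range. The log2 fold change, gluconate over PBS on the log2(FPKM + 0.1) scale, was 0.14 ± 0.12 (SE, n = 4 and 4, limma adjusted p = 0.740, exact two-sided permutation p = 0.343), and 0.066 without PBS replicate 4. It was 0.24 without PBS replicate 2, with an unadjusted limma p of 0.0486 and an adjusted p of 0.603.

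WWTR1, the gene of TAZ, lies at chr3:149517235-149724788 and was expressed far below its partner. It measured 6.94, 6.98, 6.08 and 4.46 FPKM in PBS tumors and 7.15, 6.63, 7.20 and 6.50 FPKM in gluconate tumors. PBS replicate 4 lay below all other libraries, also with its counting interval of 3.64 to 5.42 FPKM, while PBS replicates 1 and 2 lay within the gluconate range. The log2 fold change was 0.19 ± 0.14 with all libraries (exact permutation p = 0.286) and 0.044 ± 0.082 without PBS replicate 4. The level of YAP1 over that of WWTR1 ran from 8.48 to 11.0 within single libraries, and its log2 value differed by -0.042 between gluconate and PBS tumors (exact two-sided permutation p = 0.743), and by 0.022 without PBS replicate 4.

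**Figure D1:**
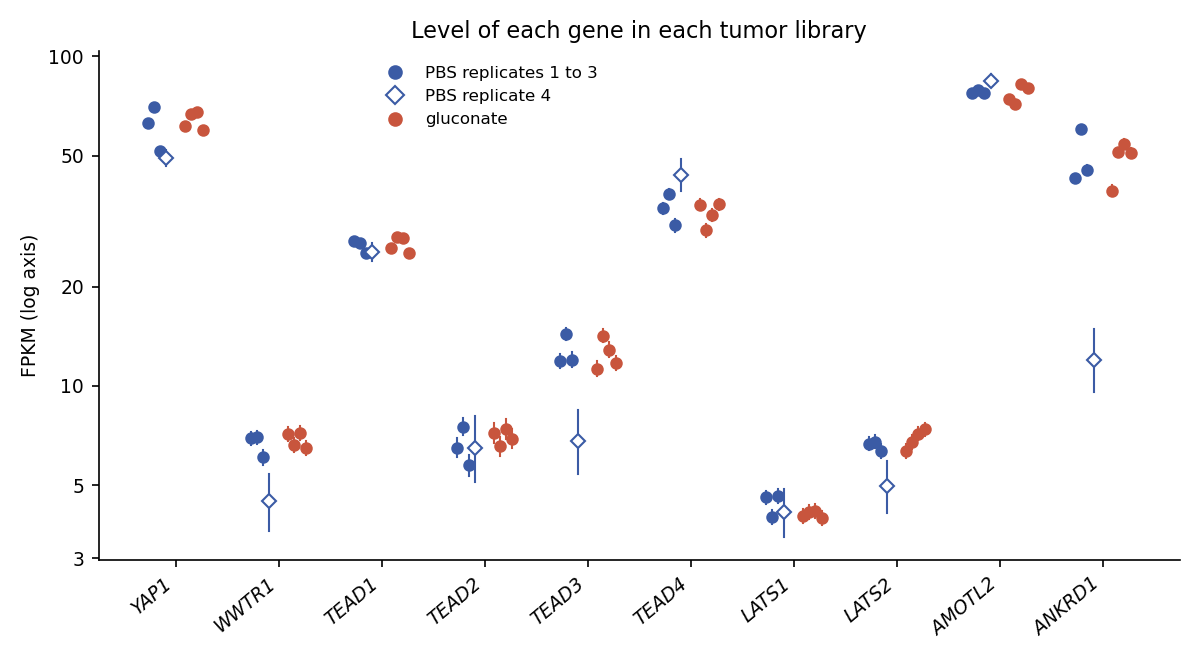
FPKM of each gene (log axis) in each of the 8 libraries, with points for single libraries, bars for 95% Poisson counting intervals and PBS replicate 4 as an open diamond. PBS and gluconate points overlap for every gene. PBS replicate 4 lies with its whole interval below the other points for WWTR1, TEAD3, LATS2 and ANKRD1 and above them for TEAD4. By its point alone it is also the lowest for YAP1 and the highest for AMOTL2.

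All 4 TEAD genes, which encode the DNA-binding partners through which YAP and TAZ act, were expressed. TEAD4 (chr12:2959397-3040676) was the most abundant, at 34.6, 38.2, 30.7 and 43.8 FPKM in PBS tumors and 35.5, 29.6, 33.0 and 35.6 FPKM in gluconate tumors. Here PBS replicate 4 was the highest library, the reverse of its place for most genes. Its log2 level exceeded the mean of the other 7 libraries by 0.37, and 9.78% of the genes tested had a higher shift. TEAD4 had a log2 fold change of -0.13 ± 0.11, and -0.043 ± 0.093 without that library.

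TEAD1 (chr11:12674421-12944737) stood at 27.6, 27.1, 25.3 and 25.5 FPKM in PBS tumors and 26.3, 28.4, 28.2 and 25.4 FPKM in gluconate tumors. Its coefficient of variation over the 7 deep libraries was 4.65%, the lowest of the 10 genes, near 4.79% for AMOTL2 and against 14.8% for ANKRD1. Over the gluconate libraries alone it was 5.39%, above LATS1 (2.35%), WWTR1 (5.15%) and TEAD2 (5.19%). The log2 fold change of TEAD1 was 0.035 ± 0.072 (95% interval -0.13 to 0.20), was 0.018 without PBS replicate 4 and was negative under median ratio scaling and quantile normalization.

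TEAD3 (chr6:35473597-35497079) stood at 11.9, 14.4, 12.0 and 6.80 FPKM in PBS tumors and 11.3, 14.2, 12.9 and 11.8 FPKM in gluconate tumors. PBS replicate 4 lay well below all the others, and the remaining PBS libraries and the gluconate libraries ran over the same levels. Its log2 fold change of 0.20 ± 0.21 became -0.027 ± 0.10 without that library. TEAD2 (chr19:49340595-49362416), the least abundant TEAD gene, ranged from 5.74 to 7.53 FPKM in PBS tumors and from 6.56 to 7.41 FPKM in gluconate tumors, with a log2 fold change of 0.10 ± 0.10, and 0.097 ± 0.099 without PBS replicate 4.

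As a share of the summed TEAD FPKM, which was 73.8 to 87.2 per library, TEAD4 made up 45.3% ± 5.19 in PBS and 41.8% ± 3.34 in gluconate tumors (SD, n = 4 each). TEAD1 made up 32.6% ± 1.91 and 33.8% ± 1.86, TEAD3 13.9% ± 3.88 and 15.7% ± 1.74, and TEAD2 8.08% ± 0.386 and 8.77% ± 0.338. The order TEAD4, TEAD1, TEAD3, TEAD2 held in all 8 libraries. PBS replicate 4 had the largest TEAD4 share, 53.0% against 37.6% to 44.7% in the others, and the smallest TEAD3 share, 8.24% against 14.1% to 18.0%. PBS replicates 1 to 3 had TEAD4 shares of 42.9%, 43.8% and 41.6% and TEAD3 shares of 14.8%, 16.5% and 16.3%, all inside the gluconate ranges. The log2 ratio of TEAD1 to TEAD4, which the scaling of a library moves only through the added 0.1, differed by 0.16 between gluconate and PBS tumors (exact two-sided permutation p = 0.314) and by 0.062 without PBS replicate 4.

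**Figure D2:**
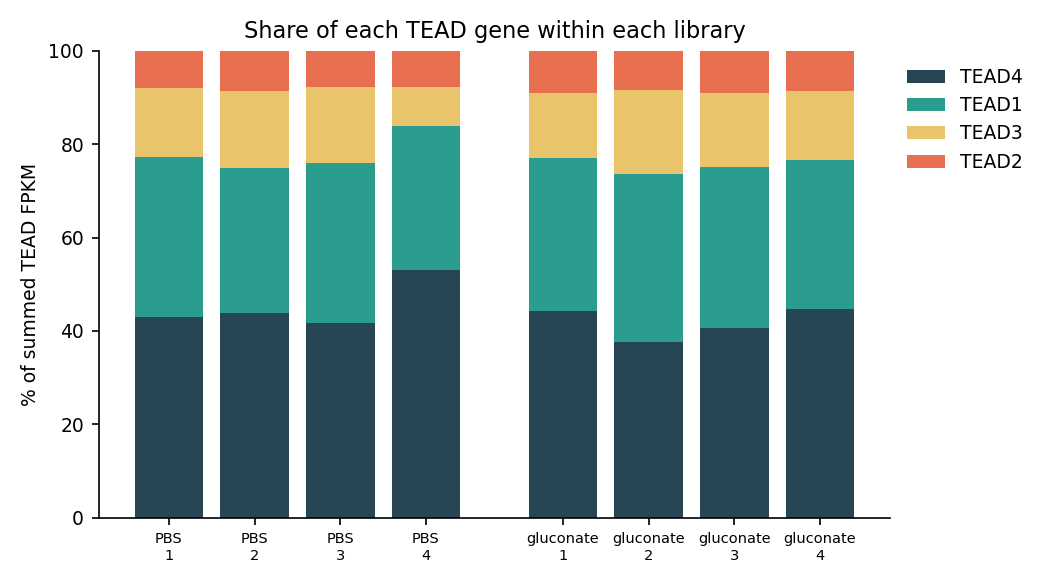
Share of each TEAD gene in the summed TEAD FPKM (percent, stacked to 100) in each PBS and gluconate library. The 4 shares keep their order in every library, and PBS replicate 4 has the largest TEAD4 share (53.0%) and the smallest TEAD3 share (8.24%).

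The LATS kinases, which phosphorylate and restrain YAP and TAZ, were among the less abundant members, at levels like those of WWTR1 and TEAD2 or below. LATS1 (chr6:149658153-149718101) measured 4.59, 3.99, 4.63 and 4.13 FPKM in PBS tumors and 4.03, 4.15, 4.17 and 3.97 FPKM in gluconate tumors. The gluconate libraries lay close together, with a coefficient of variation of 2.35% against the 2.58% that counting alone gives, and inside the spread of the PBS libraries but for gluconate replicate 4. Its log2 fold change was -0.084 ± 0.097, and -0.11 ± 0.085 without PBS replicate 4.

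LATS2 (chr13:20973036-21061586), which is itself a target gene of YAP and TAZ as well as their inhibitor, measured 6.68, 6.77, 6.36 and 4.96 FPKM in PBS tumors and 6.34, 6.76, 7.17 and 7.39 FPKM in gluconate tumors. The gluconate group reached above the highest PBS library in replicates 3 and 4, yet its lowest library lay below PBS replicates 1 to 3. Its log2 fold change was 0.16 ± 0.12, with the smallest p of the 10 genes (limma adjusted p = 0.740, exact permutation p = 0.200), and 0.063 ± 0.079 without PBS replicate 4. Within libraries LATS2 exceeded LATS1 by 1.20 to 1.86 times. The log2 ratio of LATS2 to LATS1 was 0.50 ± 0.20 in PBS and 0.74 ± 0.10 in gluconate tumors (SD, n = 4 each), a difference of 0.25 with an exact two-sided permutation p of 0.0857, or 0.429 after Benjamini-Hochberg adjustment over the 5 ratios compared, and 0.17 without PBS replicate 4. The groups overlapped, since PBS replicate 2 lay above gluconate replicates 1 and 2. The smallest p that 4 against 4 libraries allow in this test is 0.0286.

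Of the target genes, AMOTL2 (chr3:134355345-134375417), an angiomotin family protein that binds YAP and is switched on by it, was the most abundant member. It measured 77.6, 79.1, 77.6 and 84.5 FPKM in PBS tumors and 74.1, 71.5, 82.4 and 80.5 FPKM in gluconate tumors. The PBS libraries lay inside or just above the gluconate range, and PBS replicate 4 was the highest of all. The log2 fold change was -0.049 ± 0.070 with a 95% interval of -0.21 to 0.11, and -0.021 ± 0.066 without PBS replicate 4. The log2 ratio of AMOTL2 to YAP1 differed by -0.19 between gluconate and PBS tumors (exact two-sided permutation p = 0.257), and by -0.087 without PBS replicate 4.

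ANKRD1 (chr10:90912096-90921087), a muscle ankyrin repeat protein much used as a readout of YAP and TEAD, was the most variable member. It measured 42.6, 60.4, 45.2 and 12.0 FPKM in PBS tumors and 39.2, 51.2, 54.4 and 51.0 FPKM in gluconate tumors. PBS replicate 4 lay far below every other library, and the remaining PBS libraries spread across and beyond the gluconate range. Its value there rested on 85 fragments, with a counting interval that starts at 9.59 FPKM, while the mean of the other 7 libraries was 4.09 times higher. The log2 shift of this library from the others was -2.01 for ANKRD1, and 1.94% of the genes tested had a lower shift.

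With all libraries the log2 fold change of ANKRD1 was 0.50 ± 0.42 (exact permutation p = 0.486, limma 95% interval -0.46 to 1.45), the only member interval that reached past a 2-fold change. Without PBS replicate 4 it was -0.0078 ± 0.14, with an interval of -0.32 to 0.31. The level of ANKRD1 relative to YAP1 was 0.244 in PBS replicate 4 and 0.637 to 0.877 in the other libraries. Its log2 value differed by 0.35 between gluconate and PBS tumors (exact two-sided permutation p = 0.714), and by -0.074 without PBS replicate 4. In the same library the summed FPKM of 9 fibroblast markers was 45.3, against 130 to 192 in the others, most of it from COL1A1, while COL1A2, DCN and PDGFRA stayed under 0.1 FPKM in every library. The summed FPKM of 12 muscle markers, a tissue that also expresses ANKRD1, was 100 there and 103 to 113 in the others, nearly all from TNNT1. Single muscle markers did not move one way there, with TNNT2 at 0.33 FPKM from 2 fragments against 0.83 to 2.67 FPKM, TNNI3 at 1.20 FPKM from 4 fragments against 0.0255 to 0.305 FPKM, and DES at 2.03 FPKM within the range of the others. The part of fibroblast RNA, muscle RNA or depth in the ANKRD1 value was not tested.

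**Figure D3:**
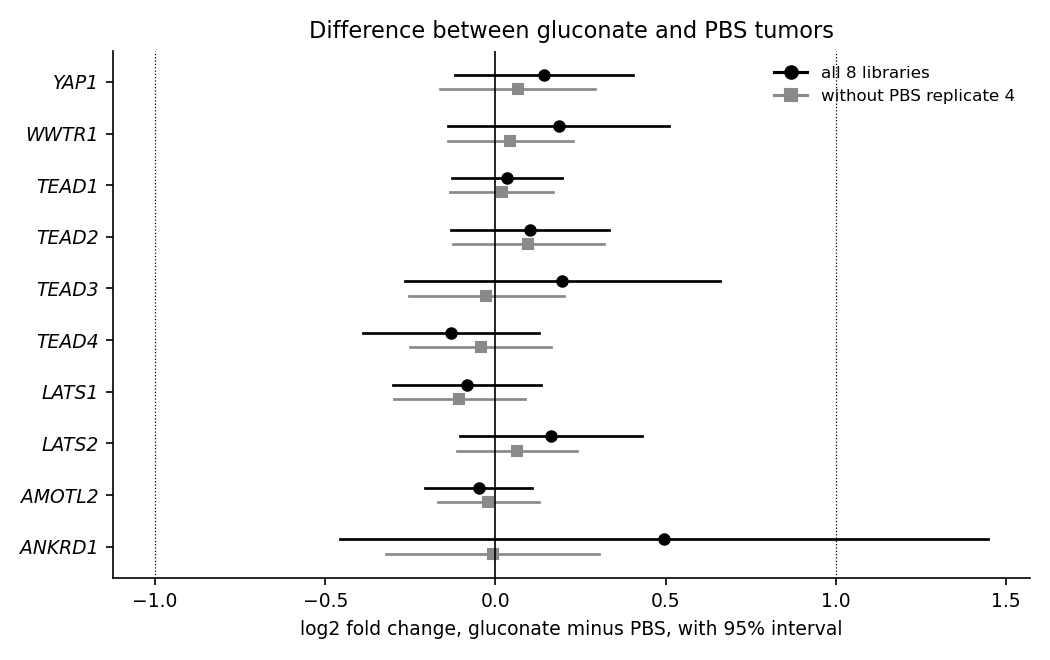
Log2 fold change of each gene, gluconate minus PBS on the log2(FPKM + 0.1) scale, with its 95% interval from limma, for all 8 libraries (black circles) and without PBS replicate 4 (grey squares). Every interval includes 0, dotted lines mark 2-fold, and ANKRD1 moves from 0.50 to -0.0078 when that library is left out.

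None of the 10 genes reached an unadjusted p under 0.05 in limma, where 4.62% of all 12486 genes tested did, nor an adjusted p under 0.05, which 0 of all genes reached. The count was also 0 of 10 with limma's voom on the recovered fragments, and 0 of 10 without PBS replicate 4, where 6.21% of 12530 genes did (2.85% higher, 3.36% lower). Nor did any pass that p together with a 2-fold change, which 0.296% of all genes did, and 0.0878% without PBS replicate 4. The groups overlapped for all 10 genes, against 3.49% of all genes without overlap. The median log2 fold change of the 10 genes was 0.12, beside 0.069 over all genes tested, and 0.0053 beside -0.0031 without PBS replicate 4. An absent call does not show equal levels, but the intervals bound the differences. The 95% interval lay within 2-fold in both directions for 9 of the 10 genes, as for 88.3% of all genes, and for 10 of 10 without PBS replicate 4, as for 96.7% of all genes.

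The 10 genes ranked AMOTL2, YAP1, ANKRD1, TEAD4, TEAD1, TEAD3, TEAD2, LATS2, WWTR1 and LATS1 by mean FPKM, from 78.4 down to 4.21. The ranges over the 8 libraries did not overlap between AMOTL2 and YAP1, between TEAD4 and TEAD1, or between TEAD1 and TEAD3. TEAD2, LATS2 and WWTR1 were not separable, since TEAD2 exceeded LATS2, and LATS2 exceeded WWTR1, in 4 of 8 libraries each. ANKRD1 exceeded TEAD4 in 7 of 8 libraries, the exception being PBS replicate 4. Among all genes tested, AMOTL2 was above 94.0% and YAP1 above 92.3%, whereas LATS1 was above 39.1%.

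PBS replicate 4 was the lowest library for 5 of the 10 genes, YAP1, WWTR1, TEAD3, LATS2 and ANKRD1, and the highest for TEAD4 and AMOTL2. It lay outside the range of the others with its whole counting interval for 5 genes, below for WWTR1, TEAD3, LATS2 and ANKRD1 and above for TEAD4. Over all genes tested, 27.5% lay below and 7.50% above in this way. The median log2 shift of the library was -0.21 over the 10 genes and -0.28 over all genes, with TEAD3 at -0.88 and WWTR1 at -0.59.

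**Figure D4:**
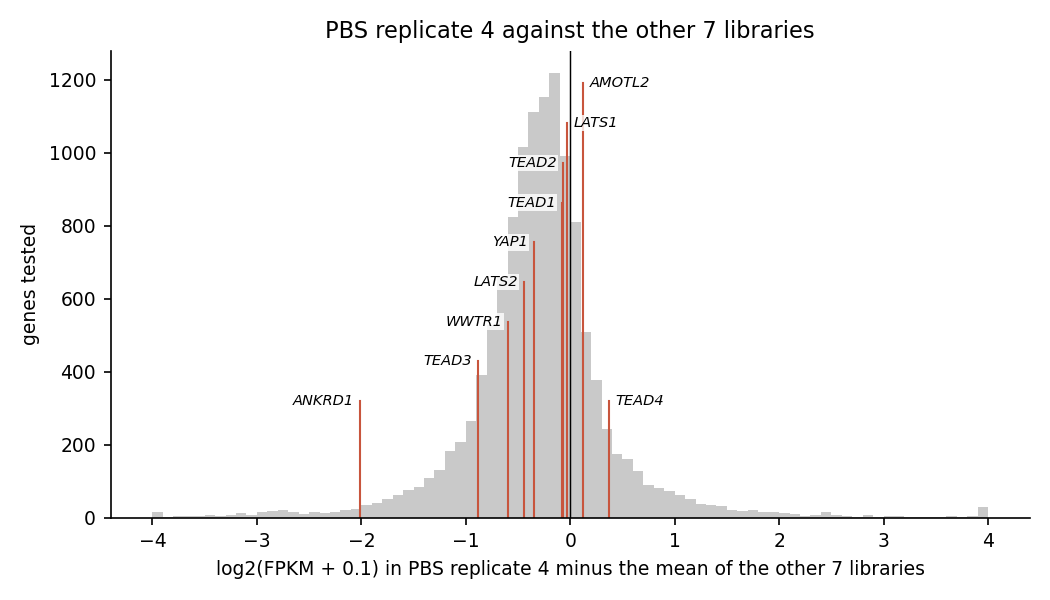
Histogram over all genes tested (y axis, number of genes) of log2(FPKM + 0.1) in PBS replicate 4 minus the mean of the other 7 libraries, values past the ends counted in the end bins, with red lines at the 10 genes (line heights carry no value). ANKRD1 lies in the low tail at -2.01, TEAD4 on the high side at 0.37, and the other genes within the bulk.

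The wider list of 22 YAP and TAZ target genes, in which AMOTL2, ANKRD1 and LATS2 are counted again, was tested in full. At an unadjusted p under 0.05, CCN2 was higher in gluconate tumors and F3 lower, 1 gene in each direction, where 3.13% of all genes were higher and 1.49% lower, and neither passed adjustment (adjusted p = 0.740 each). CCN2, a secreted matrix protein also called CTGF, measured 87.9, 92.1, 109 and 60.0 FPKM in PBS tumors and 104, 104, 135 and 151 FPKM in gluconate tumors. PBS replicate 3 lay above gluconate replicates 1 and 2, so the groups overlapped. Its log2 fold change was 0.51 ± 0.19 (exact permutation p = 0.0857), and 0.34 ± 0.14 without PBS replicate 4, and the unadjusted p passed 0.05 in 15 of 17 alternative fits, not without gluconate replicate 3 or without gluconate replicate 4.

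F3, tissue factor, the starter of blood coagulation, measured 56.0, 56.2, 88.9 and 84.2 FPKM in PBS tumors and 55.8, 35.3, 45.8 and 48.1 FPKM in gluconate tumors. The groups did not overlap, by the narrow margin between PBS replicate 1 and gluconate replicate 1, and 3.49% of all genes tested had no overlap in either direction. The log2 fold change of F3 was -0.61 ± 0.19 (exact permutation p = 0.0286, the smallest possible), and the unadjusted p stayed under 0.05 in 17 of 17 alternative fits with log2 fold changes of -0.71 to -0.43, and -0.52 without PBS replicate 4.

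The most abundant genes of the target list were CCN1, the receptor tyrosine kinase AXL and the ectoenzyme NT5E. CCN1, a matrix protein related to CCN2, had means of 211 FPKM in PBS and 239 FPKM in gluconate tumors, with a log2 fold change of 0.20 ± 0.17, and 0.054 ± 0.13 without PBS replicate 4. AXL had 191 FPKM in both, with a log2 fold change of 0.00077 ± 0.079, and -0.042 ± 0.075 without that library. NT5E had 203 and 161 FPKM, with a log2 fold change of -0.30 ± 0.17, and -0.16 ± 0.13 without it. The median log2 fold change of the 22 targets was 0.15, and 0.019 without PBS replicate 4. Beside these, 5 of the 9 fibroblast markers were tested, with log2 fold changes from 0.33 (PDGFRB) to 0.70 (FAP). Their median was 0.49, and 0.20 without PBS replicate 4, and none passed an unadjusted p of 0.05. COL1A2, DCN, PDGFRA and THY1 lay under the filter, with means of 0.0044 to 0.071 FPKM, where COL1A1 had 145 FPKM. The part of fibroblast RNA in the target values was not tested. PBS replicate 4 was the lowest of the 8 for 13 of the 22 targets (59.1%), close to the 58.0% of all genes, and held a single fragment of TGFB2.

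Other parts of the pathway were read from 77 genes, of which 68 were tested, PTPN14 of the target list among them. They cover the kinase core, upstream regulators, antagonists, TEAD cofactors and the proteins that retain or turn over YAP. Of the 68, 1 gene (1.47%, beside the 4.62% of all genes) passed an unadjusted p of 0.05. WWC1, also called KIBRA, a scaffold that activates the LATS kinases, measured 17.2, 19.5, 23.6 and 17.4 FPKM in PBS tumors and 15.1, 14.3, 15.4 and 16.0 FPKM in gluconate tumors. Every gluconate library lay below every PBS library, where 3.49% of all genes tested had groups without overlap in either direction. The log2 fold change of WWC1 was -0.34 ± 0.11 (limma adjusted p = 0.740, exact permutation p = 0.0286), and -0.39 ± 0.10 without PBS replicate 4, and it passed the unadjusted threshold in 17 of 17 alternative fits.

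The median log2 fold change of these 68 genes was 0.011, and -0.0083 without PBS replicate 4. Without that library, 5 of the 68 (7.35%, beside 6.21% of all genes) passed an unadjusted p of 0.05, among them MAP4K4, a kinase that activates LATS, higher in gluconate tumors and WWC1, STK38L and STRIP2 lower (limma adjusted p = 0.799 for each). The most abundant genes of each list showed no call with all libraries. The 14-3-3 protein YWHAE, which holds phosphorylated YAP in the cytoplasm, had 691 FPKM and log2 fold changes of 0.020 with all libraries and 0.039 without PBS replicate 4. The AP-1 subunit FOSL1, a partner of TEAD at enhancers, had 173 FPKM and a log2 fold change of -0.34, which was -0.15 without PBS replicate 4. The kinase MAP4K4 had 47.2 FPKM and a log2 fold change of 0.056, which was 0.22 without that library. The junction protein CTNNA1 had 75.7 FPKM and log2 fold changes of 0.061 and -0.0075 with and without it. The phosphatase subunit PPP2CA had 57.0 FPKM and log2 fold changes of -0.26 and -0.0092 in the same order, where PBS replicate 4 stood at 102 FPKM, above the 46.4 to 54.1 FPKM of the rest. The next in level in the same lists, YWHAZ and SFN, JUN and JUND, MOB1A and STK38, FRMD6 and PALS1, and PPP2R1A and AJUBA, had log2 fold changes between -0.070 (SFN) and 0.23 (JUND) with all libraries. Without PBS replicate 4, SFN was at -0.12 and JUND at 0.038. NF2, the tumor suppressor merlin that recruits LATS to the membrane, lay under the filter at 0.28 to 0.57 FPKM from 8 to 194 fragments and was named after its values were seen.

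The genes whose profile over the 7 deep libraries lay closest to those of 4 members were found by the mean absolute distance between centred log2 values. Nearest to YAP1 were NELFCD at 0.0206, PRPF6 and DDX24, where the median gene lay at 0.146. Nearest to WWTR1 were TSPAN6, THG1L and SAV1, an adaptor of the Hippo kinases, and nearest to AMOTL2 were PTX3, NSFL1C and MYRF. Nearest to ANKRD1 were PACS2 at 0.0475, INHBB and SUSD1, with the median gene at 0.201. Over all 8 libraries, DDX24, TSPAN6, THG1L and PTX3 stayed among the nearest 50, and none of the 3 neighbours of ANKRD1 did. The profiles share libraries and depth, and 7 points leave many genes with a like profile.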

How the data were processed

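RNA of 8 tumors (4 PBS, 4 gluconate) was analysed from polyA libraries. The authors deposited FPKM values by gene symbol, on GRCh38 per the labels. Aligner, counting, annotation and the handling of mouse fragments are not given in the sources used here. Columns lettered C and T were read as PBS and gluconate, from the study's log2(T/C) axis and because these are the only groups with 4 libraries. The 12 libraries of cultured cells were not analysed here. The labels number the tumors but do not say that each came from a separate mouse, so p-values measure the spread between these samples. No pair of replicates agreed within sampling noise.

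Groups were compared on the log2(FPKM + 0.1) scale by limma 3.58.1 (R 4.3.3, eBayes with trend). A mean FPKM minimum of 0.5 left 12486 genes, with Benjamini-Hochberg adjustment over all of them. Within-library ratios were tested by exact permutation over 70 splits (scipy 1.17.1). Fragments were recovered as whole multiples of the FPKM step (24196 of 24196 genes, tolerance 0.01) and gave depths, Poisson intervals and a voom fit. The fit was tested on simulated data. The members and lists were chosen with earlier results of these data known. Named were the 10 members, and of each list the genes with an unadjusted p under 0.05 and, for the pathway lists, the 3 with the highest mean FPKM, and the 3 nearest profiles of YAP1, WWTR1, AMOTL2 and ANKRD1. Other genes, among them STK38L, STRIP2, TGFB2 and single cell type markers, were named after their values were seen. Of the 18 cell type markers tested, KRT7 (log2 fold change 0.73, and 0.48 without PBS replicate 4) and TNNT2 (1.08 and 0.66) passed an unadjusted p of 0.05. Of all genes tested, 4.62% did. Each marker had a limma adjusted p of 0.740 and passed in 15 of 17 alternative fits. One gene is not reported here.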

Additional observations from a re-analysis of the deposited data

How the results depend on the processing

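Of 170 member fold changes under 17 alternative fits, 165 kept their direction. TEAD1 turned to -0.031 under median ratio scaling and to -0.0038 under quantile normalization, TEAD3 to -0.021 with limma's array weights and to -0.027 without PBS replicate 4, and ANKRD1 to -0.0078 without PBS replicate 4. With single libraries left out, the log2 fold changes ran from 0.066 to 0.24 for YAP1, 0.044 to 0.26 for WWTR1, 0.011 to 0.064 for TEAD1, 0.040 to 0.17 for TEAD2, -0.027 to 0.33 for TEAD3, -0.21 to -0.043 for TEAD4, -0.12 to -0.052 for LATS1, 0.063 to 0.21 for LATS2, -0.082 to -0.014 for AMOTL2 and -0.0078 to 0.77 for ANKRD1. The count of members at an unadjusted p under 0.05 was 0 to 1 with single libraries left out (YAP1 without PBS replicate 2). For the target list, with 2 genes in the reported fit, it was 1 to 5 in this way (1 without gluconate replicate 3, 5 without PBS replicate 2). For the other Hippo genes, with 1 in the reported fit, it was 1 to 5 (5 without PBS replicate 1 or PBS replicate 4, 2 without PBS replicate 2 or PBS replicate 3), 2 under quantile normalization, 2 with voom and 3 with array weights. For all genes, with 577 in the reported fit, it was 267 to 1216 (1216 without PBS replicate 1, 874 without PBS replicate 2, 288 and 267 without gluconate replicates 3 and 4), and 1028 with no filter on low values, where 24196 genes were tested. The share of these genes that were higher in gluconate tumors was 67.8%. It was 50.6% under median ratio scaling, 54.9% under quantile normalization, 56.4% with voom, 49.1% with array weights and 45.9% without PBS replicate 4. It was 76.3% without PBS replicate 1 and 76.1% without PBS replicate 2, the largest shares of the 17 alternatives. The causes were not tested. Replicate numbers did not pair the samples (correlations of same-numbered deviations -0.18, 0.08, 0.17 and -0.06), and with the replicate block 0 members, 4 targets, 1 other Hippo gene and 470 genes in all passed, with 0 adjusted. The exact p of the 5 ratios stayed above 0.05 with pseudocounts of 0.01 and 1, was not computed with a library left out, and cannot pass it over 4 pairs. YAP1 to WWTR1 turned from -0.042 to 0.022 and ANKRD1 to YAP1 from 0.35 to -0.074 without PBS replicate 4. Depth limits PBS replicate 4 most: 76 fragments of TEAD2, 82 of TEAD3 and 85 of ANKRD1 stand for these genes there.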
